A study of Arabidopsis thaliana with 9 samples.

Results

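The genes described here are 39 core cell-cycle genes of Arabidopsis thaliana: 8 B-type cyclins, 7 A-type cyclins, 10 D-type cyclins, 5 cyclin-dependent kinases (CDKs), 7 KRP genes and the cytokinesis genes KNOLLE and HINKEL. They were named by locus identifier, and all 39 were found among the 38115 genes of the plate matrices. Their transcripts were followed in single nuclei of hypocotyls, where the cambium, a ring of stem cells, produces xylem inwards and phloem outwards as the organ thickens.

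Nuclei came from 9 libraries. Plants of 7 libraries carried the reporters PXY:H4-GFP and SMXL5:H2B-RFP in the Col-0 background and were 4 weeks old. Of these, 3 were VASA cambium plates, whose nuclei had been sorted for reporter fluorescence, 3 were VASA all hypocotyl plates without that gate, and 1 was a droplet (10x) library of the whole hypocotyl. The remaining 2 droplet libraries came from plants without these reporters at 19 days, 1 from d14 (allele d14-1, affected in the strigolactone receptor) and 1 from WT (Col-0). Days had 10 h of light and nights lasted 14 h for all plants. VASA-seq is a plate method that counts unique fragments of total RNA, whereas the droplet method counts unique molecules at the 3′ end.

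Passing nuclei numbered 277 to 313 per VASA cambium plate, 181 to 293 per VASA all hypocotyl plate, 2081 in the 10x all hypocotyl library, 822 in d14 and 684 in WT. Median counts per nucleus were 4086 to 6059 on the plates and 1852 to 2029.5 in the droplet libraries, so a gene at 10 CPM (counts scaled to the total of the library) left a count in few nuclei. Each gate was a single preparation spread over 3 plates, so the plates are technical replicates and every p-value below measures the spread between plates. The cambium gate was set on fluorescence, and transcripts of the reporters did not separate the gates. Their log2 changes on the cambium plates against the all hypocotyl plates were -0.36 ± 0.23 for H4GFP (edgeR FDR 0.548) and 0.06 ± 0.22 for H2BRFP (edgeR FDR 0.956, ± is the SE). D14 transcripts were at 14.9 CPM in d14 and 15.3 CPM in WT (31 and 26 counts), so the level of this gene does not tell these libraries apart. Blank wells held 0 to 2 member counts per plate. In droplets of 1 to 100 counts, which hold free RNA and no nucleus, the 39 genes together made up 741 CPM in the 10x all hypocotyl library, 678 CPM in d14 and 633 CPM in WT.

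A cyclin-dependent kinase is active only when bound to a cyclin. In plants, D-type cyclins with CDKA;1 drive entry into the cycle by phosphorylating the retinoblastoma-related protein, A-type cyclins act around DNA replication and the second gap phase, and B-type cyclins with the plant-specific B-type kinases act at mitosis. KRP proteins bind and inhibit cyclin-kinase complexes. KNOLLE, a syntaxin, and HINKEL, a kinesin, build the cell plate that divides the daughter cells. A set of 13 of these genes is called the mitotic list below: the 8 B-type cyclins, CYCA1;1, CDKB2;1, CDKB2;2, KNOLLE and HINKEL, all known for transcripts that peak from late replication to cell division.

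On the plates, the D-type cyclin CYCD3;1, the inhibitors KRP2, KRP6 and KRP4 and the kinase CDKA;1 had the highest levels per gene length of the 39 genes. Corrected for gene length, CYCD3;1 (AT4G34160), a D-type cyclin that promotes division in response to cytokinin, was the highest with 26.04 ± 4.45 CPM per kb (SD, n = 6 plates). It was followed by the inhibitors KRP2 (AT3G50630) with 22.8 ± 4.56 and KRP6 (AT3G19150) with 16.9 ± 1.16 CPM per kb, and by CDKA;1 (AT3G48750), the main kinase of the cycle, with 13.2 ± 2.29 CPM per kb. CYCD3;1 and KRP2 did not differ beyond their spread, nor did CDKA;1 and KRP4 (12.4 ± 1.13 CPM per kb). The highest A-type cyclin was CYCA2;3 (AT1G15570) at 3.50 CPM per kb, the highest B-type cyclin CYCB1;2 (AT5G06150) at 2.36 CPM per kb, and KNOLLE (AT1G08560) lay at 0.760 CPM per kb. Over the 6 plates, counts per member ranged between 5 for CYCD4;2 and CYCD7;1 and 525 for CYCD3;1. CYCD7;1, known for its role in stomatal guard cells, had no count in any droplet library. The other 38 members were detected both on the plates and in the 10x all hypocotyl library.

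**Figure D1:**
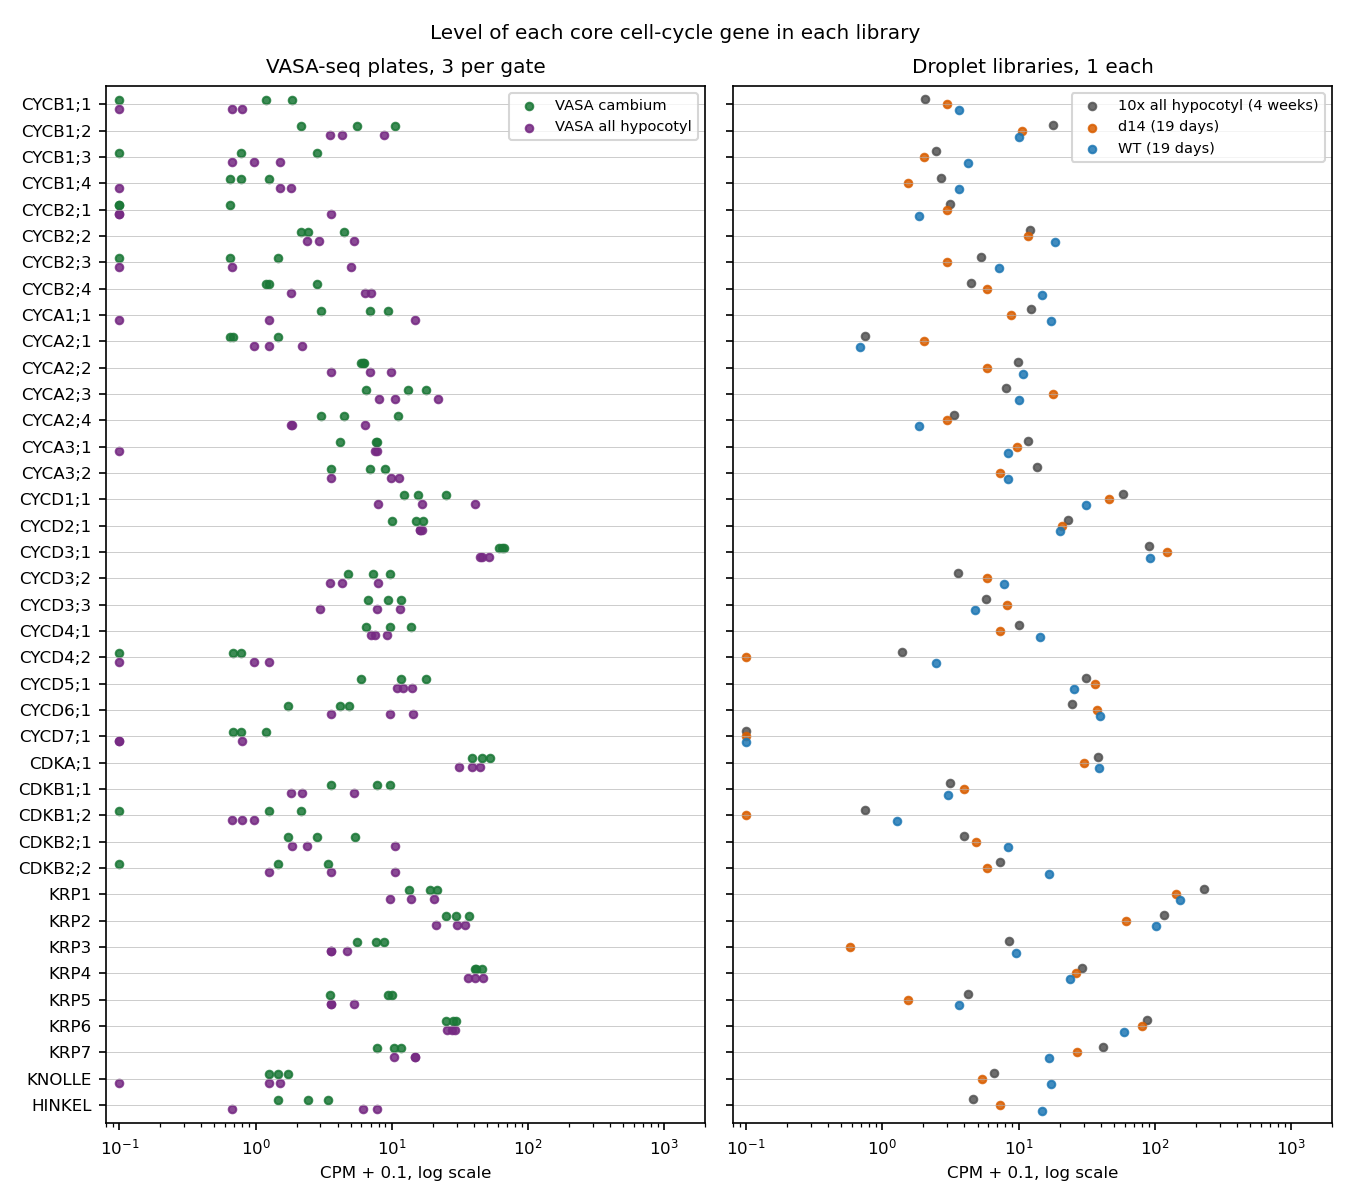
Level of each of the 39 genes in each library, as CPM + 0.1 on a log axis; points at 0.1 mark genes with no count. The left panel shows the 3 VASA cambium and 3 VASA all hypocotyl plates and the right panel the 3 droplet libraries. The plates of CYCD3;1 and of KRP3 do not overlap between the gates.

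The first comparison asked whether sorting on the cambium reporters changed these genes. Of the 39 members, 17 had enough counts to be tested between the 3 VASA cambium and the 3 VASA all hypocotyl plates, and none of them was called (edgeR quasi-likelihood test, FDR under 0.05). DESeq2 also called 0, and 1 member had an unadjusted p under 0.05. On simulated counts the edgeR test recovered only 35.2% of 2-fold changes, so changes of this size can be missed. Over all genes the same test called 3.54% of 16134. In sums over nuclei of mixed types, fewer nuclei of a type and less RNA per nucleus cannot be told apart.

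CYCD3;1 had the lowest p. It was at 67.0, 61.2 and 64.2 CPM on the cambium plates, against 44.7, 52.0 and 46.1 CPM on the all hypocotyl plates. All cambium plates lay above all others, and the log2 change was 0.44 ± 0.15 (SE), but its edgeR FDR over all genes was 0.148. KRP3, a KRP of low level, likewise had plates that did not overlap (7.52, 8.74 and 5.49 CPM on the cambium plates, against 4.58, 3.51 and 3.48 CPM on the all hypocotyl plates), on 53 counts in all, and was too low to be tested. No other member was without overlap, so that 2 of 39 members were, where 16% of 25390 genes with at least 5 counts (the lowest count of a member) were.

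The most abundant members of the other families overlapped between gates. CDKA;1 was at 52.6, 39.04 and 46.1 CPM on the cambium plates, against 38.97, 44.2 and 31.3 CPM on the all hypocotyl plates. KRP2 was at 36.9, 25.1 and 29.6 CPM on the cambium plates, against 29.8, 34.4 and 20.9 CPM on the all hypocotyl plates. CYCA2;3, of the A2 cyclins that act with CDKB1 kinases, was at 17.8, 6.41 and 13.2 CPM on the cambium plates, against 8.02, 21.8 and 10.4 CPM on the all hypocotyl plates. For these 3 genes the plates of the gates overlapped. CYCB1;2 was at 2.05, 10.5 and 5.49 CPM on the cambium plates, against 3.44, 4.21 and 8.70 CPM on the all hypocotyl plates. KNOLLE had 2, 2 and 3 counts on the cambium plates, against 2, 2 and 0 counts on the all hypocotyl plates. Both mitotic genes thus rested on counts too few to separate the gates.

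Of 83 other cell-cycle genes on lists drawn up for this comparison (replication, E2F and retinoblastoma factors, late-cycle genes, MYB3R and anaphase-promoting complex activators, CDK control, and 12 genes of dividing root cells), 47 were tested between gates and 1 was called. It was CDC20.2, an activator of the anaphase-promoting complex, which fell by 1.47 on the log2 scale on the cambium plates (SE 0.30, edgeR FDR 0.0166).

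The second comparison set cambium-marker nuclei against the other nuclei of the same plate. A nucleus counted as cambium-marker when, after thinning to 1200 counts (1500 in d14 and WT), it held at least 2 counts of PXY, SMXL5, WOX4, ANT and ATHB8, which are known cambium genes and no members. Such nuclei made up 18.4% to 22.4% of each cambium plate and 20.8% to 25.9% of each all hypocotyl plate. The reporter H4GFP was higher in them (log2 change 2.37 ± 0.21, edgeR FDR 1.2e-06), as was H2BRFP (0.87 ± 0.21, edgeR FDR 0.00709). The rule may also take in nuclei outside the cambium. In the 10x all hypocotyl library 556 nuclei met it, while the clusters described below named 134 nuclei cambium-like. A list of 22 cambium markers that includes these genes was 3.26-fold higher as a sum in vessel-like nuclei there. In cambium-like nuclei it was 4.29-fold higher. CYCD3;1 was higher and KRP2 was lower in cambium-marker nuclei. They were 2 of the 7 members with enough counts for this test, which called 17.1% of 11689 genes (edgeR, FDR under 0.05).

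CYCD3;1 had 83.5, 79.4 and 121 CPM in cambium-marker nuclei of the cambium plates, against 61.3, 56.3 and 48.9 CPM in their other nuclei. On the all hypocotyl plates it had 61.2, 89.0 and 75.0 CPM in cambium-marker nuclei, against 39.4, 37.3 and 39.03 CPM in other nuclei. It was higher in 6 of 6 plates, with means of 84.8 ± 19.9 CPM in cambium-marker nuclei and 47.0 ± 10.1 CPM in other nuclei (SD, n = 6 plates). The log2 change was 0.85 ± 0.17 (SE, edgeR FDR 0.00125), and it was called under all 16 alternative settings tried, with edgeR or DESeq2 FDR between 3.1e-04 and 0.0465.

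KRP2 had 29.6, 8.22 and 12.8 CPM in cambium-marker nuclei of the cambium plates, against 39.4, 29.6 and 34.2 CPM in their other nuclei. On the all hypocotyl plates it had 9.42, 17.3 and 13.2 CPM in cambium-marker nuclei, against 36.4, 41.2 and 22.8 CPM in other nuclei. It was lower in 6 of 6 plates, with means of 15.1 ± 7.79 CPM in cambium-marker nuclei and 33.9 ± 6.80 CPM in other nuclei (SD, n = 6 plates). The log2 change was -1.21 ± 0.27 (SE, edgeR FDR 0.00311). It was called under 15 of 16 alternatives. On the cambium plates alone it was not called (edgeR FDR 0.0929, the highest over those alternatives).

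The other 5 tested members were not called: KRP4 with a log2 change of 0.32, CDKA;1 with 0.29, CYCD2;1 with 0.07, KRP6 with -0.16 and CYCD1;1 with -0.29. None of the 7 tested members changed differently between the 2 gates (edgeR interaction, lowest FDR 0.635, for KRP4, whose interaction had an unadjusted p of 0.0283). Across all genes that interaction called 16 of 11689.

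**Figure D2:**
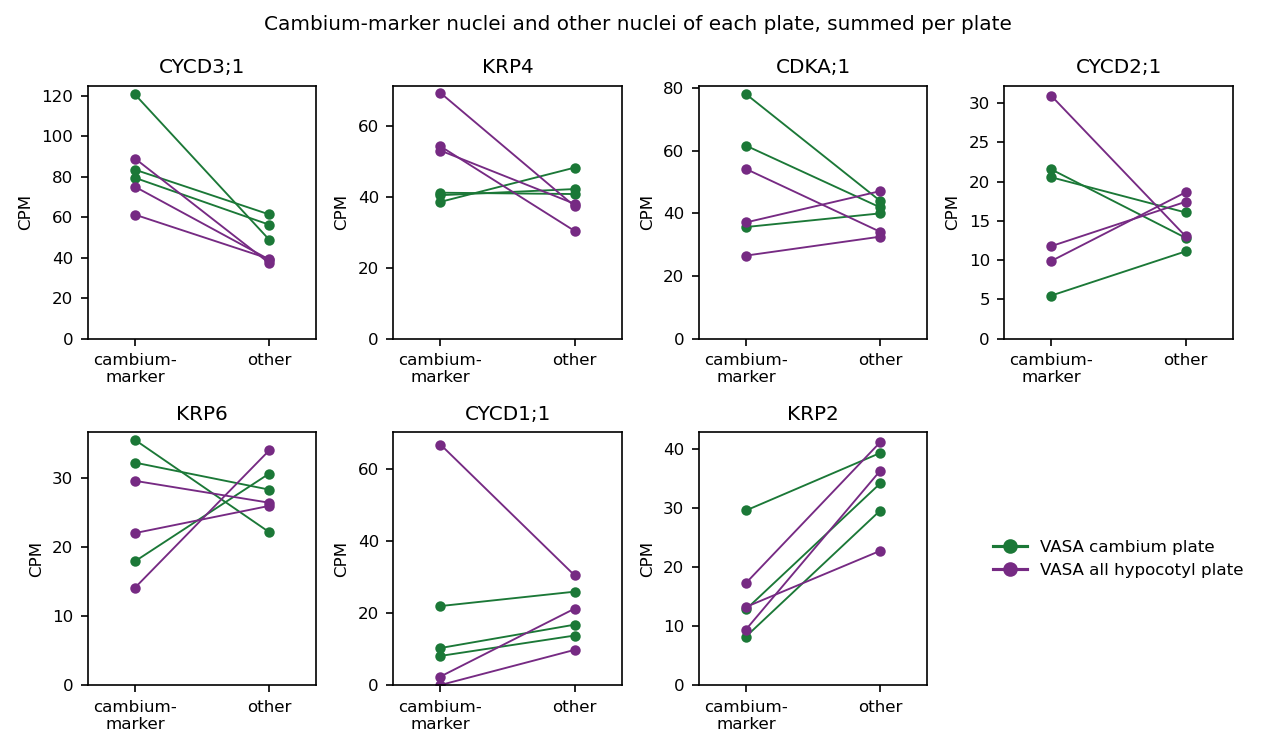
CPM of the 7 tested members in cambium-marker nuclei (left) and in the other nuclei (right) of each plate, with 1 line per plate and gates in different colours. All 6 lines fall to the right for CYCD3;1 and all 6 climb to the right for KRP2; the lines of the other 5 genes run both ways.

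Without the filter on low counts all 39 members entered the same test, and 7 were called where the background was 8.96% of 33402 genes. Besides CYCD3;1 and KRP2, these were CYCD4;1 (AT5G65420, log2 change 1.85, edgeR FDR 1.97e-04), CYCA2;3 (1.13, edgeR FDR 0.0184), CDKB2;1 (1.95, edgeR FDR 0.0312) and HINKEL (AT1G18370, 2.68, edgeR FDR 0.00236), all higher in cambium-marker nuclei, and KRP1 (AT2G23430, -1.70, edgeR FDR 7.6e-04), which was lower. CYCD4;1, a D-type cyclin, was higher in 6 of 6 plates with means of 21.3 ± 14.4 CPM in cambium-marker nuclei and 5.198 ± 1.05 CPM in other nuclei. KRP1 was lower in 6 of 6 plates with means of 6.29 ± 2.90 CPM in cambium-marker nuclei and 19.4 ± 5.78 CPM in other nuclei (SD, n = 6 plates each). CYCA2;3 and HINKEL were higher on 5 of 6 plates and CDKB2;1 on 4 of 6. HINKEL left only 31 counts over the plates and CDKB2;1 only 37. Of the 84 counts of CYCD4;1, 14 came from a single nucleus.

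With the filter on low counts, the test of cambium-marker nuclei called 937 of 11689 genes higher and 1066 lower. Among the 83 other cell-cycle genes, 32 were tested, of which 17 were called and all 17 were higher. By list these were 6 of 8 tested replication genes, 6 of 8 late-cycle genes, 2 of 6 MYB3R and anaphase-promoting complex genes, 2 of 5 E2F and retinoblastoma genes and 1 of 5 CDK control genes. The 10 with the lowest FDR were CCS52A1 (log2 change 1.99), CDC20.2 (3.31), POK2 (1.66), ICU2 (1.52), CCS52B (1.59), SMC4 (1.78), POK1 (1.60), MCM5 (1.22), SMC2B (1.30) and INCENP (1.37), with edgeR FDR between 3.87e-06 and 0.0035. CCS52A1, CCS52B and CDC20.2 encode activators of the anaphase-promoting complex, which destroys cyclins. POK1 and POK2 are kinesins that place the division plane, SMC4 and SMC2B are condensin subunits, and ICU2 and MCM5 act in DNA replication. The median log2 change was 0.92 over these 32 genes and 0.07 over the 7 members, beside 0.01 over all genes tested. The filter can favour genes that are high in 1 class. CDC20.2, at 5.29 CPM in other nuclei and 56.9 CPM in cambium-marker nuclei, met it through the cambium-marker nuclei. Without the filter, 28 of the 83 genes were called higher and 0 lower, where 930 of 33402 genes were called higher and 2063 lower. RBR1, the retinoblastoma-related protein that D-type cyclins act on, was also higher, by 0.60 ± 0.18 on the log2 scale and on 5 of 6 plates (edgeR FDR 0.0263).

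The same split was made in the droplet libraries, which are single libraries without a test, so that ratios are given with exact 95% intervals that cover counting error only. In the 10x all hypocotyl library, 26 members had at least 20 counts. Of these, 7 were at least 2-fold higher in the 556 cambium-marker nuclei than in the other 1525, where 7.92% of all genes were, and 5 were at least 2-fold lower, where 13.1% were. CYCD3;1 was at 167 CPM in cambium-marker nuclei and 61.5 CPM in other nuclei, 2.71-fold higher (2.23 to 3.30). The ratio of CYCD3;1 was 2.40 (1.86 to 3.09) in d14 and 3.17 (2.29 to 4.40) in WT. KRP1 had a ratio of 0.399 (0.331 to 0.479) in the 10x all hypocotyl library, 0.168 (0.103 to 0.262) in d14 and 0.302 (0.186 to 0.468) in WT. KRP2 had a ratio of 0.489 (0.381 to 0.619) in the 10x all hypocotyl library, 0.661 (0.421 to 1.01) in d14 and 0.309 (0.169 to 0.525) in WT. In each droplet library CYCD3;1 was thus higher in cambium-marker nuclei, KRP1 was lower and the ratio of KRP2 was under 1, with an interval that included 1 in d14.

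CYCD6;1 (AT4G03270), a D-type cyclin known for a formative division of the root, had a ratio of 2.39 (1.62 to 3.52) in the 10x all hypocotyl library, 3.39 (2.11 to 5.52) in d14 and 2.64 (1.57 to 4.39) in WT, but 1.04 (0.527 to 1.94) over the 6 plates, where it left 58 counts. CYCA2;3 had a ratio of 6.41 (3.06 to 14.4) in the 10x all hypocotyl library and 2.41 (1.64 to 3.52) over the plates. Members of the mitotic list went both ways in the 10x all hypocotyl library: CYCA1;1 stood at 3.61 (2.06 to 6.41), and KNOLLE had 1 count in cambium-marker nuclei against 29 in other nuclei, a ratio of 0.0935 (0.00229 to 0.564). In WT, KNOLLE had 0 counts in cambium-marker nuclei against 29 in other nuclei. This 0 rests on the rule of 2 counts: 26 of the 29 lay in nuclei with at least 1 thinned cambium marker count, and all 29 lay in 7 nuclei, up to 11 in a single nucleus. In d14 it had 6 counts in cambium-marker nuclei against 5 in other nuclei (2.68, 0.682 to 11.1), and the same counts over the plates (3.93, 0.998 to 16.3).

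Nuclei were then grouped by clusters made without the 39 members or the 83 other cell-cycle genes and named from marker genes. A cluster against the rest is no test, so these levels are descriptions. On the plates no cluster was named for cambium: a cluster of 144 xylem parenchyma-like nuclei also had 11 of 22 cambium markers raised. In the 10x all hypocotyl library, CYCD3;1 was highest in 134 cambium-like nuclei (265 CPM, 95% interval 208 to 333), with 218 CPM (162 to 289) in vessel-like and 182 CPM (144 to 227) in periderm-like nuclei. It was at 6.31 CPM in cortex-like nuclei and had 0 counts in 89 epidermis-like nuclei, whereas droplets with free RNA only held it at 88.9 CPM. The intervals of cambium-like and vessel-like nuclei overlap, so their order cannot be told from counting error.

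Other D-type cyclins followed other classes. CYCD6;1 was at 169 CPM (120 to 232) in vessel-like nuclei and 123 CPM (92.4 to 161) in periderm-like nuclei of the 10x all hypocotyl library, which held 38 and 53 of its 113 counts, and it had 0 counts in xylem parenchyma-like, cortex-like, epidermis-like and phloem parenchyma-like nuclei. In vessel-like nuclei it was at 134 CPM in d14 and 175 CPM in WT, but most of its counts lay in unnamed nuclei (40 of 78 in d14 and 47 of 67 in WT). On the plates, 31 of its 58 counts lay in 54 nuclei named vessel-like (80.5 CPM). The leading genes of that cluster included IRX12 and CESA4 but also LAC3, AT2G18150, AT2G33850 and RHD2. AT2G18150 and AT2G33850 also led the cluster of 186 nuclei that made up most periderm-like nuclei of the 10x all hypocotyl library, where 11 of 16 periderm markers were raised and none was among the leading genes. All 4 led an unnamed cluster in d14 and WT, so these class names may cover different nuclei in different libraries. CYCD1;1 was at 211 CPM in phloem parenchyma-like nuclei, where its 29 counts came from 3 of 64 nuclei, and 179 CPM (141 to 224) in periderm-like nuclei, against 14.5 CPM in cambium-like nuclei. CYCD5;1, at 47.2 to 57.7 CPM in cambium-like, vessel-like and xylem parenchyma-like nuclei, had intervals that overlapped between these classes.

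Among the inhibitors, KRP1 and KRP2 were high in epidermis-like and low in cambium-like nuclei. KRP1 was at 605 CPM (521 to 698) in epidermis-like, 396 CPM (341 to 456) in cortex-like and 36.3 CPM in cambium-like nuclei of the 10x all hypocotyl library. KRP2 was at 341 CPM (279 to 413) in epidermis-like, 228 CPM (185 to 278) in periderm-like, 58.9 CPM in cortex-like and 18.2 CPM in cambium-like nuclei, with 0 counts in dividing-like nuclei. KRP7, in contrast, was highest in cambium-like nuclei at 116 CPM (79.5 to 164), against 16.3 CPM in epidermis-like nuclei. KRP6 lay between 36.3 and 147 CPM in every named class and in the unnamed nuclei. CDKA;1 ranged between 21.8 and 62.4 CPM outside dividing-like nuclei and had 0 counts in 20 dividing-like nuclei, which allows up to 55.1 CPM (3 counts).

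**Figure D3:**
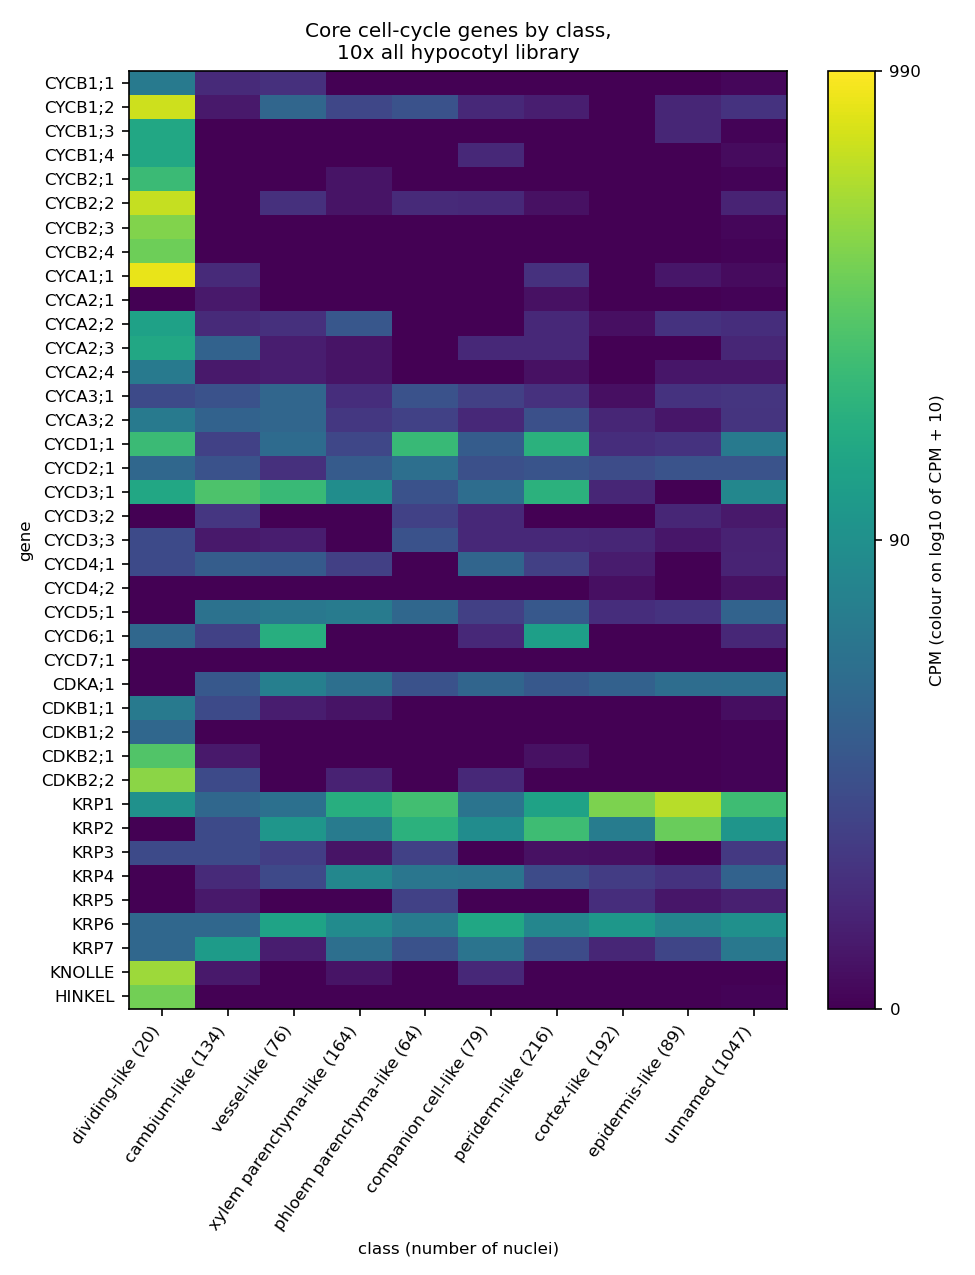
CPM of the 39 genes (rows) in each class of the 10x all hypocotyl library (columns, with the number of nuclei), coloured on a log10 scale of CPM + 10. The mitotic genes form a bright column in 20 dividing-like nuclei; CYCD3;1 is bright in cambium-like, vessel-like and periderm-like nuclei, and KRP1 and KRP2 in epidermis-like nuclei.

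The 13 mitotic genes were concentrated in very few nuclei. In the 10x all hypocotyl library the 20 dividing-like nuclei, 0.961% of all, held 278 of 385 mitotic-list counts (72.2%). There CYCA1;1 reached 846 CPM (46 counts in 16 nuclei), CYCB1;2 reached 699 CPM (38 counts in 6 nuclei) and CYCB2;2 reached 662 CPM (36 counts in 7 nuclei). Dividing-like nuclei held 75.2% of the list's counts in d14 (25 of 822 nuclei) and 83.6% in WT (20 of 684). On the plates, a cluster of 34 of 1588 nuclei held 54.4%. It had 8 of the 12 dividing markers raised, where the dividing-like clusters of the droplet libraries had all 12. In none of these clusters was a marker among the leading genes. The plate cluster shared the leading genes ACI1, IMK2 and CSLD5 with the dividing-like cluster of d14 and WT. Its leading genes also included the sieve element genes SEOa and SEOR1, so it is not called dividing-like. It held 20 of 882 nuclei of the cambium plates and 14 of 706 of the all hypocotyl plates. Depth limits what is seen, since 48 nuclei of the cambium plates and 45 of the all hypocotyl plates held exactly 1 count of the list, against 17 and 16 that held 2 or more.

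Concentration was measured without clusters as well. For each gene, its share was taken of counts lying in nuclei with at least 2 counts of the other mitotic genes at full depth. In the 10x all hypocotyl library such nuclei, 33 to 39 of 2081, held 27 of 30 KNOLLE counts (73.5% to 97.9%), 95.2% of the HINKEL counts and 78.6% (65.6 to 88.4) of the CYCA1;1 counts. CYCB1;2 was less confined, with 47.6% (36.4 to 58.9). Across the list, 71.9% of counts lay there, against 3.05% for the other 26 members together. In WT the list's share was 82.3% against 2.84% for the other members, in d14 67.1% against 2.93%, and on the plates 49.7% against 4.46%. Nuclei with at least 2 counts of the list held 2.50% of the counts of all genes in the 10x all hypocotyl library. This share was 2.62% in WT, 2.08% in d14 and 2.80% on the plates. On the plates CYCA1;1 had only 21.8% (11.8 to 35.01) of its 55 counts there and CYCB1;2 had 75.5% (61.7 to 86.2), the reverse order of the 10x all hypocotyl library. A single nucleus held 15 of the 55 CYCA1;1 counts, and a single nucleus held 13 of the 53 CYCB1;2 counts. These intervals treat counts as independent and are too narrow, so a difference in order between methods cannot be told from so few nuclei.

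Of the members outside the mitotic list with at least 20 counts on the plates, CYCA2;4 and CYCA2;3 had the highest shares there. CYCA2;4 had 44.2% of its counts in such nuclei on the plates and 26.7% in the 10x all hypocotyl library, and CYCA2;3 had 22.0% on the plates, 24.3% in the 10x all hypocotyl library, 18.9% in d14 and 29.4% in WT. CDKB1;1, a kinase partner of A2 cyclins, had 6.52% on the plates and 3 of 14 counts in the 10x all hypocotyl library. For D-type cyclins and KRP genes with at least 20 counts, no share in the 10x all hypocotyl library exceeded 5.56%, the value of CYCD3;1.

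**Figure D4:**
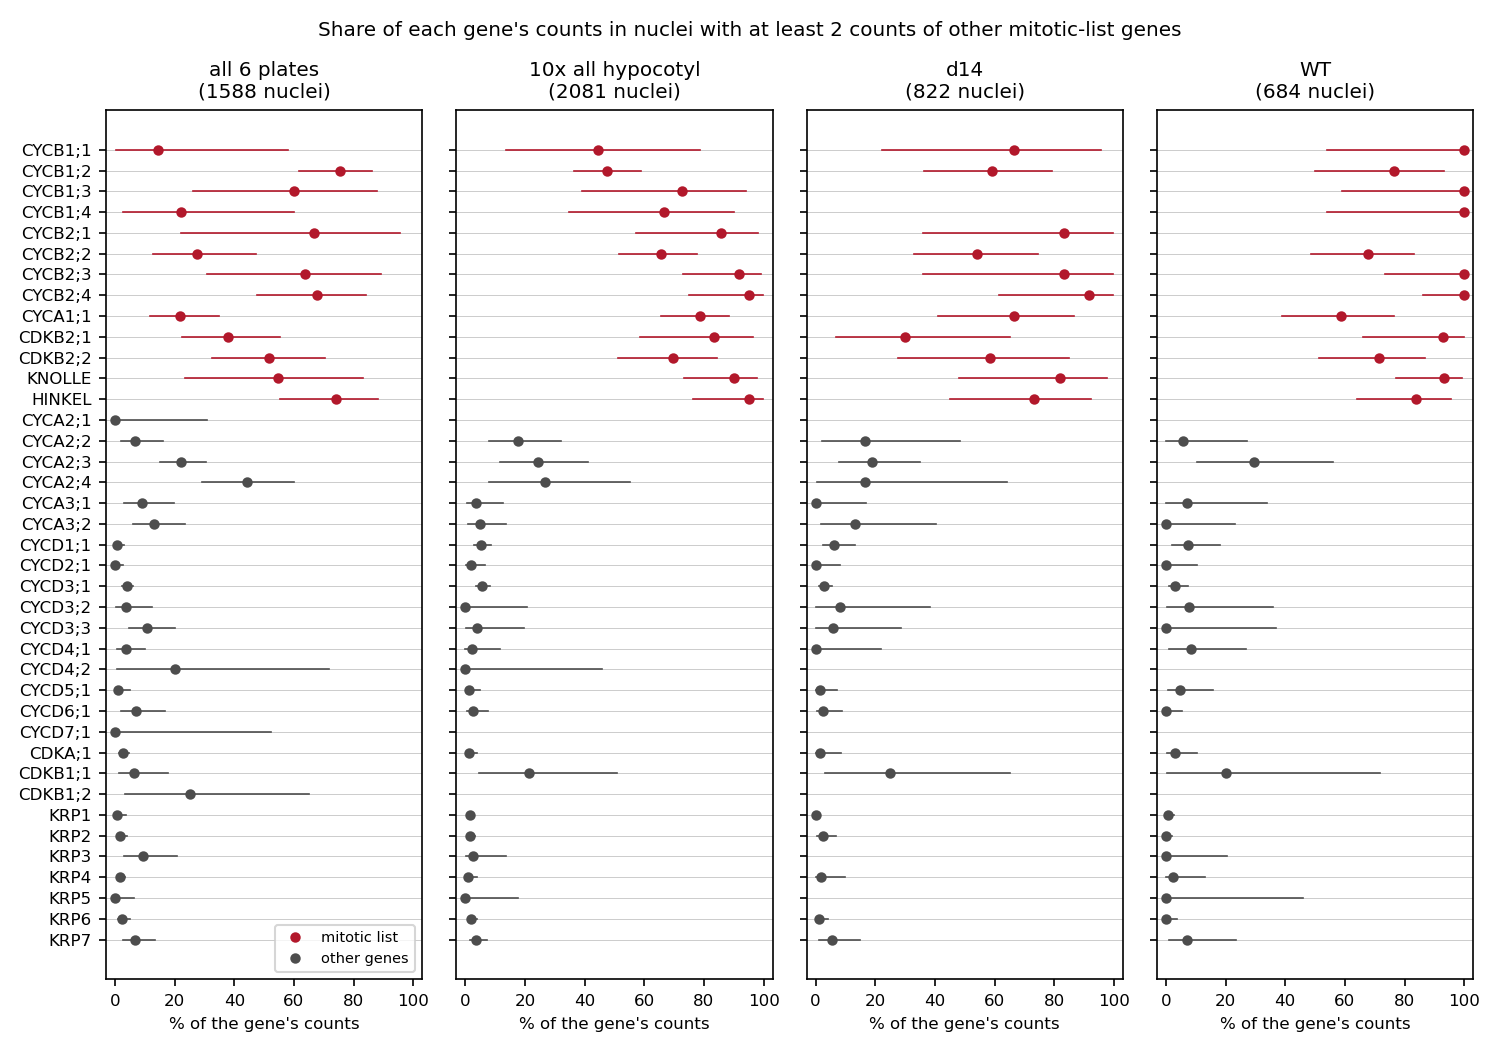
Share of each gene's counts that lay in nuclei with at least 2 counts of the other mitotic-list genes, with exact 95% intervals, for genes with at least 5 counts. Mitotic-list genes reach 44.4% to 95.2% in the 10x all hypocotyl library, and the other members stay at or under 26.7%.

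The promoters of these genes were read because MYB3R factors are known to bind the mitosis-specific activator (MSA) element, whose core is AACGG, in late-cycle genes. The 250 bases before the annotated gene start were taken from the TAIR10.1 assembly for each member, with RefSeq gene models. The core was searched on both strands, where its reverse complement reads CCGTT, together with 4 forms of the E2F site (TTTCCCGC, TTTGGCGC, TTTCGCGC and TTTGCCGC) on both strands. No searched form contains another. Of 27443 promoters of protein-coding genes, 20.6% held at least 1 MSA core, 3.62% at least 2 and 0.736% at least 3. Among the 13 mitotic genes, 10 held at least 1, 7 at least 2 and 6 at least 3. Among the other 26 members, 7 held at least 1, 5 at least 2 and 2 at least 3. An E2F form was found in 1.41% of all promoters and in 1 member, CYCD3;3.

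The next lines give the promoters of the mitotic genes with the highest levels in dividing-like nuclei of the 10x all hypocotyl library, CYCB1;2 (chr5:1861704-1861953, minus strand), CYCB2;2 (chr4:16901346-16901595, plus strand) and CYCA1;1 (chr1:16777353-16777602, minus strand), then those of CYCD3;1 (chr4:16357171-16357420, plus strand), KRP2 (chr3:18800056-18800305, plus strand) and KRP1 (chr2:9978091-9978340, minus strand), of which CYCD3;1 and KRP2 were called in cambium-marker nuclei and KRP1 had the most MSA cores. Each runs 5′ to 3′ and ends at the base before the gene start, with MSA cores in capitals.
CYCB1;2: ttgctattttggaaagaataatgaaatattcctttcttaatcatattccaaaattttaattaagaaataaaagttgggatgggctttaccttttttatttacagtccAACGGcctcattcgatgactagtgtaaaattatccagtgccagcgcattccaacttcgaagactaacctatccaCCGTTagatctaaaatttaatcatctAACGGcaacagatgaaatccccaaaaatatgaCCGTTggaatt
CYCB2;2: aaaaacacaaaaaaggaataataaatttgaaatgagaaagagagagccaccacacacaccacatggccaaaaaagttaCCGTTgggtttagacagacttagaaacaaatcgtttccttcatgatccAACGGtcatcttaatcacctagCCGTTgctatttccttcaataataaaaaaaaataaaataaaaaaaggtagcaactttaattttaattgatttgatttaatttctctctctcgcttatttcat
CYCA1;1: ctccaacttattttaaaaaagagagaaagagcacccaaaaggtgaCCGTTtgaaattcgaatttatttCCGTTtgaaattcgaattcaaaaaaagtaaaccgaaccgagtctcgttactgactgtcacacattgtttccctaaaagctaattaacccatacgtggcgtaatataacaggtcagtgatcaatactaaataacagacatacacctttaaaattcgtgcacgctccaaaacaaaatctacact
CYCD3;1: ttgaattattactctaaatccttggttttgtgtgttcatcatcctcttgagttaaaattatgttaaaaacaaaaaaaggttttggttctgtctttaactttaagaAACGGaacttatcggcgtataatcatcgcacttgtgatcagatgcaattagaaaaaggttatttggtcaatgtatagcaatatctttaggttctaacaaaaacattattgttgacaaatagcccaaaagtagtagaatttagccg
KRP2: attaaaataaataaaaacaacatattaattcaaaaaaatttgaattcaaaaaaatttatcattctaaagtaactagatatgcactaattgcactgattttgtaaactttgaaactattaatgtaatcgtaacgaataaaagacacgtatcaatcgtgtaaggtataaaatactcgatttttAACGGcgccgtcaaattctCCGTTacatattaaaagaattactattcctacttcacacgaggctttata
KRP1: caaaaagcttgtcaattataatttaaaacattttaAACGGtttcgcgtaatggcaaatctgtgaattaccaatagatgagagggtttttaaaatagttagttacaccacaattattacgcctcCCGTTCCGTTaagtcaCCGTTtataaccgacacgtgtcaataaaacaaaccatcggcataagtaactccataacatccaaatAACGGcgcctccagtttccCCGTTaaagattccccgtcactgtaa

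CYCB1;2 had 4 cores, the nearest beginning 11 bases before the gene start, CYCB2;2 had 3 and CYCA1;1 had 2. KRP1, at 91.9 CPM in dividing-like nuclei and 605 CPM in epidermis-like nuclei, had 6, the most of any member, and KRP7 had 3. The core was absent from this window in the mitotic genes CYCB1;4, CYCB2;4 and CDKB2;1. Cores were more frequent in the mitotic list, where 10 of 13 genes held at least 1, than among the other 26 members, where 7 did. A count of cores still did not sort every member by where its transcripts were found. A match is a run of letters rather than a site shown to be bound.

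Another comparison, planned as a test on the plates, set nuclei with at least 2 thinned counts of the mitotic list against all others. It had only 1 to 3 such nuclei per plate (10 in all), and it called 30.8% of 9518 genes, 2850 of 2935 of them lower, with a median log2 change of -1.60 over all genes. Of the 26 members outside the list, 5 were tested and 0 were called (edgeR); 1 had an unadjusted p under 0.05, and DESeq2 also called 0. On simulated counts the test recovered 4.9% of 4-fold changes, so it does not bear on whether those members differ in mitotic nuclei. Of 22 other cell-cycle genes tested, 9 were called (edgeR FDR between 9.4e-18 and 0.0439). AUR1 (log2 change 6.25), MAD2 (6.19) and CCS52B (3.38) were higher on 6 of 6 plates, and CDC20.1 (2.89) and CDC20.2 (2.58) on 5 of 6. AUR1 and MAD2 were at means of 1.41 and 1.38 CPM in other nuclei, so they entered the test only through the mitotic nuclei. Those nuclei were chosen on mitotic genes, so calls of other late-cycle genes are a description and their FDR carries no further weight. SMC4 and POK2 were called higher but were so on only 3 and 2 of 6 plates. RNR2A and SKP2A were called lower and had 0 counts in the mitotic nuclei. In the 10x all hypocotyl library, where 22 nuclei met the rule, CYCA2;3 was at 149 CPM in them and 6.37 CPM in other nuclei (ratio 23.4, 9.24 to 52.4), CYCD1;1 at 205 CPM in them and 56.7 CPM in other nuclei (3.61, 1.78 to 6.58), and CYCD3;1 at 223 CPM in them and 88.3 CPM in other nuclei (2.53, 1.297 to 4.47). The 12 CYCD1;1 counts of dividing-like nuclei lay in 2 nuclei, so the interval of this gene is too narrow. Of all genes in this split of the 10x library, 46.2% were at least 2-fold lower in the 22 nuclei, and the median ratio was 0.597. KRP1 was at 74.5 CPM in these nuclei and 232 CPM in other nuclei (0.321, 0.0874 to 0.825), and KRP2 had 0 counts in them against 537 in other nuclei (0 to 0.584). The interval of CDKA;1 included 1 (0.969, 0.116 to 3.55). For CYCD3;1 the intervals in d14 (0.366, 0.00922 to 2.06) and WT (1.46, 0.466 to 3.48) also included 1.

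The last comparison set d14 against WT at 19 days. With 1 library per genotype there is no replicate check, and the genotype and the library cannot be told apart. Over all passing nuclei the mitotic list as a sum and KRP2 were lower in d14, and CYCD3;1, KRP6, KRP7 and CYCD1;1 were higher, by intervals that cover counting error only. In nuclei with at least 2500 counts the intervals of the list (24 counts in d14 and 26 in WT, ratio 0.702, 0.386 to 1.27), of KRP6 (1.29, 0.903 to 1.85) and of KRP7 (1.90, 0.802 to 4.99) included 1, and the ratio of the 8 B-type cyclins was above 1 on 11 counts in d14 and 5 in WT (1.67, 0.536 to 6.14). Summed over the 2 libraries, 26 members had at least 20 counts, of which 4 stood at least 2-fold lower in d14 and 0 at least 2-fold higher, where 8.61% of 16850 genes passed 2-fold in either direction. The 4 were KNOLLE (11 counts in d14 against 29 in WT, ratio 0.309, 0.139 to 0.638), CDKB2;2 (12 against 28, 0.349, 0.162 to 0.710), CYCB2;4 (12 against 25, 0.391, 0.179 to 0.808) and HINKEL (15 against 25, 0.489, 0.240 to 0.965). CYCA1;1 lay just inside 2-fold with 18 counts in d14 and 29 in WT (0.506), and CYCB1;2, with 22 counts in d14 and 17 in WT, had a ratio of 1.06. All 4 belong to the mitotic list.

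The mitotic list as a whole had 149 counts in d14 and 232 in WT, 71.6 CPM against 137 CPM. These counts came from few nuclei: 16 of 822 in d14 (1.95%, exact 95% interval 1.12 to 3.14) and 21 of 684 in WT (3.07%, 1.91 to 4.65) held 2 or more, and 5 nuclei of each library held 54.4% of the list's counts in d14 and 59.1% in WT. The intervals of these shares overlap, and intervals of single genes that treat counts as independent are too narrow here. Within dividing-like nuclei the list was at 2254 CPM in 25 d14 nuclei and 4603 CPM in 20 WT nuclei. In droplets of 1 to 100 counts it was at 105 CPM in d14 (125 counts) and 120 CPM in WT (141 counts). Over all passing nuclei the list was thus below its free RNA level in d14 and above it in WT. The share of nuclei that met the cambium-marker rule was 36.6% in d14 and 27.2% in WT, and its part in these ratios was not tested.

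The count of members past 2-fold depended on which barcodes entered. It was 8 of 35 over every barcode of 500 counts or more, where 7.13% of all genes passed 2-fold. It was 7 of 21 in nuclei with at least 1 thinned cambium marker count, where 11.1% of all genes did, and 1 of 11 (KRP2) in nuclei with at least 2500 counts, where 11% did. All of these members were lower in d14.

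Of the members outside the mitotic list with at least 20 counts, KRP2, CYCD3;1, KRP6, KRP7 and CYCD1;1 had intervals that did not include 1. The share of all genes with such an interval was not taken, so these 5 are a description without a background. KRP2 was at 61.0 CPM in d14 and 101.99 CPM in WT (127 and 173 counts, ratio 0.599, 0.472 to 0.757). In epidermis-like nuclei it was at 151 CPM in d14 and 323 CPM in WT (0.466, 0.332 to 0.648), while in unnamed nuclei it was at 44.8 CPM in d14 and 42.5 CPM in WT (1.05, 0.663 to 1.69). CYCD3;1 was at 124 CPM in d14 and 92.0 CPM in WT (257 and 156 counts, 1.34, 1.10 to 1.65). In nuclei with at least 1 thinned cambium marker count CYCD3;1 was at 179 CPM in d14 and 168 CPM in WT, and there its interval included 1 (1.07, 0.835 to 1.37). KRP6 was at 80.3 CPM in d14 and 59.0 CPM in WT (1.36, 1.06 to 1.76), with a ratio of 2.34 (1.22 to 4.73) in epidermis-like nuclei. KRP7 was at 26.9 CPM in d14 and 16.5 CPM in WT (56 and 28 counts, 1.63, 1.02 to 2.67), and CYCD1;1 was at 46.1 CPM in d14 and 31.2 CPM in WT (96 and 53 counts, 1.48, 1.05 to 2.11). Of the 96 CYCD1;1 counts in d14, 17 lay in 1 nucleus, against at most 3 in a nucleus of WT, so its interval is too narrow. Nuclei with a CYCD1;1 count numbered 44 of 822 in d14 and 41 of 684 in WT. KRP1, with 300 counts in d14 and 259 in WT, had a ratio of 0.944 (0.797 to 1.12). CDKA;1 (0.778, 0.542 to 1.12) and CYCD6;1 (0.949, 0.676 to 1.34) had intervals that included 1.

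KRP3 (AT5G48820) fell under the limit of 20 counts but stood apart and was singled out after its values were seen. It had 1 count in d14 and 16 counts in 13 nuclei in WT (ratio 0.0510, 0.00122 to 0.328). Over every barcode of 500 counts or more it had 4 counts in d14 and 47 in WT (0.0751, 0.0197 to 0.205). In droplets of 1 to 100 counts it was at 5.06 CPM in d14 (6 counts) and 10.2 CPM in WT (12 counts). In the 4-week 10x all hypocotyl library KRP3 had 39 counts in 36 nuclei.

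**Figure D5:**
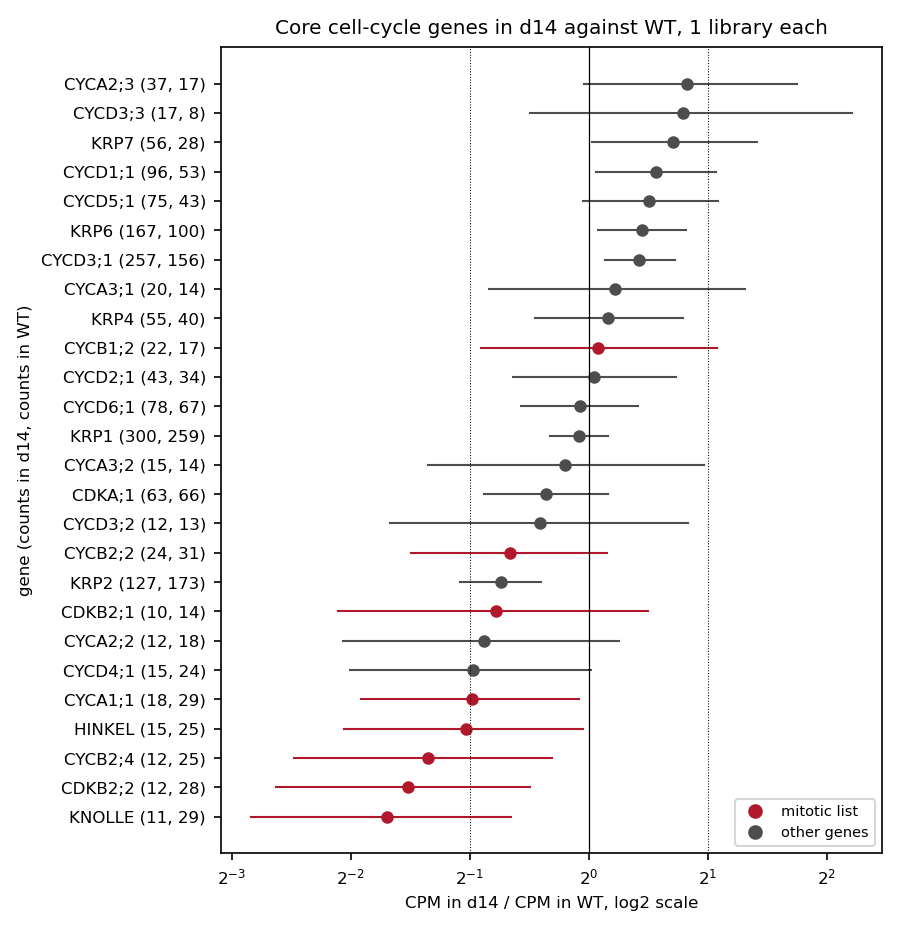
Ratio of CPM in d14 to CPM in WT for the 26 members with at least 20 counts in d14 and WT together, with exact 95% intervals that cover counting error only (dotted lines mark 2-fold). KNOLLE, CDKB2;2, CYCB2;4 and HINKEL, all of the mitotic list, have the lowest ratios (0.309 to 0.489), and no gene passes 2-fold upward.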

How the data were processed

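Per the labels and the study's methods, the authors aligned the plate and 10x all hypocotyl reads with STAR 2.7.8a, introns included, and the d14 and WT reads with Cell Ranger 6.0.1, on TAIR10. The deposited values are raw counts per gene and barcode, collapsed by molecular identifier.

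Nuclei had more than 1200 and fewer than 15000 counts on the plates, 1200 to 10000 in the 10x all hypocotyl library and 1500 to 15000 in d14 and WT, with under 20% mitochondrial counts. Spike-ins and 6 blank wells per plate were left out, and no doublet caller was run. Counts were summed per plate, or per plate and class of nuclei with the plate as a block, and tested with edgeR 4.0.16 (quasi-likelihood, TMM, filterByExpr, Benjamini-Hochberg FDR under 0.05 over all genes), after a check on simulated counts. Genes that defined a class left its test. Clusters came from Seurat 5.3.0. Ratios carry exact binomial intervals and levels exact Poisson intervals, both at 95%. Sample groups follow the labels.

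Named were all members called, the leading member of each family and, of the other cell-cycle genes, the 10 of lowest FDR among those called. Members and lists were chosen with earlier results of these data known. On simulated counts, 91.6% of 4-fold changes were recovered between gates and 98.9% in cambium-marker nuclei. Of 2-fold changes, only 35.2% were recovered between gates and 57.5% in cambium-marker nuclei, so an uncalled member may still differ by 2-fold or less. Alternatives were DESeq2 1.42.0, other size factors, no filter, other minimums, other class limits, each plate left out and the replicate block.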

Additional observations from a re-analysis of the deposited data

How the results depend on the processing

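With the replicate number as a block between gates, 761 genes were called in place of 571 and still 0 members. The correlations of same-numbered plates were 0.134, -0.032 and 0.074, so the numbers did not pair the plates. In no alternative was a member called between gates, where the count of genes called lay between 322 and 465 with a plate left out and reached 1254 without the filter. In cambium-marker nuclei, 7 members were called without the filter on low counts and 1 on the cambium plates alone. In mitotic nuclei, 2 members (CYCA2;3 and CYCA2;4) were called without the filter, 1 (CYCA2;3) with at least 3 thinned counts, 1 (KRP4) without the replicate block, and 0 to 1 with a plate left out, where KRP4 was called without VASA all hypocotyl replicate 2. The genes called in that comparison fell to 392 with DESeq2, 955 with RLE size factors and 20 on the cambium plates alone, and reached 3772 without the block. In d14 against WT, 1 of 11 members passed 2-fold at a minimum of 2500 counts (11% of all genes), 8 of 35 over barcodes of at least 500 counts (7.13%) and 7 of 21 in nuclei with a cambium marker count (11.1%).

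Uncalled members changed sign when 1 plate was left out. Between gates their log2 changes then lay between -0.25 and 3.07 (CYCA1;1), -0.40 and 0.41 (CYCA2;3), -0.20 and 0.65 (CYCA3;1), -0.65 and 0.46 (CYCD1;1), -0.047 and 0.86 (CYCD3;3), -0.43 and 0.24 (CYCD5;1), -0.031 and 0.21 (KRP2), -0.014 and 0.14 (KRP4), and -0.020 and 0.069 (KRP6). In cambium-marker nuclei they lay between -0.25 and 0.017 (CYCD1;1), -0.17 and 0.24 (CYCD2;1), and -0.36 and 0.054 (KRP6). In mitotic nuclei KRP6 lay between -1.45 and 0.17. Other settings turned the sign of CYCD2;1 in cambium-marker nuclei (-0.011 without the filter, -0.091 on the all hypocotyl plates alone), and on the cambium plates alone that of KRP4 (-0.14) and KRP6 (0.059). In mitotic nuclei, at least 1 thinned count gave -0.036 for CYCD3;1, 0.47 for KRP4 and 0.64 for KRP6, and KRP6 was at 0.37 with DESeq2, 0.32 with RLE size factors and 0.13 on the all hypocotyl plates alone. The causes were not tested. Leaving out nuclei with 2 or more mitotic counts, an alternative chosen after seeing the data, kept CYCD3;1 and KRP2 called in cambium-marker nuclei (edgeR FDR 8.3e-04 and 0.00405).

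The plates of a gate share 1 preparation, and d14 and WT are 1 library each. Most members left under 100 counts over the 6 plates, which is too few to be tested between classes. Which nuclei of the 10x all hypocotyl library fell in the phloem parenchyma-like class changed with rounding in the linear algebra of the clustering, so its levels are less firm than those of the other classes.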
